A study of Mus musculus with 20 samples.

Results

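Ovaries of dwarf mice (df/df) were compared with ovaries of normal mice (N/df) at 6 months of age, 5 libraries against 5 of the 20 in the series. The libraries were chosen by their labels, which give genotype and age, and were made from polyadenylated ovarian RNA of females. The labels do not say whether each library came from a separate mouse or a pool, so p-values measure the spread between these libraries, which may be technical. Both groups carry the strain label Ames dwarf, so every normal control also carried 1 df allele. No treatment is named for either group. The remaining 10 libraries, dwarf and normal ovaries at 22 months, entered the model to estimate the spread between libraries and supplied the comparison of ages at the end.

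Pituitaries of df/df mice lack the cells that make growth hormone, prolactin and thyroid stimulating hormone, while gonadotrophs are retained. In rodents, prolactin keeps the corpus luteum alive and secreting progesterone after ovulation, acting through its receptor and the transcription factors STAT5A and STAT5B. Growth hormone acts through the same pair of factors and raises insulin-like growth factor 1 in the liver. Theca cells around the follicle make androgens, and granulosa cells turn these into estrogens. The df mutation is present in every cell from conception, so loss of a hormone during development and in the adult cannot be told apart.

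Totals over genes ran from 1365640 to 22429386 counts in the normal group and from 14224520 to 36068284 in the dwarf group, and 16099 of 23457 genes had enough counts to be tested. Levels are given as CPM, the reads of a gene scaled to a common library size, in the order of replicates 1 to 5. Normal replicate 2 stood apart. Its level of Ovgp1, the oviduct-specific glycoprotein, was 4775 CPM, against 60.0, 56.3, 9.73 and 15.8 in the other normal libraries. The mean log2 CPM of 12 oviduct epithelium markers was 7.94 in it, 2.22 to 5.03 in the other normal libraries and 2.33 to 6.50 in the dwarf libraries. Ovarian markers were low in the same library: the mean log2 CPM was 3.82 for 18 luteal genes against 8.02 to 8.41 in the other 4, 3.00 against 6.03 to 7.26 for 24 granulosa genes, and -1.31 against 2.97 to 3.85 for 35 oocyte genes. This library thus held little of the ovarian markers for a sample labelled ovary, and the results below are given with it and without it. Oviduct markers were not confined to that library. Ovgp1 was 435, 914, 11.9, 490.1 and 21.2 CPM in the dwarf libraries, high in replicates 1, 2 and 4. Normal replicate 3 had the lowest total, 1365640 counts, and is named where it decides a value. In RNA from whole ovaries, fewer cells of a type and less RNA per cell cannot be told apart.

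**Figure D1:**
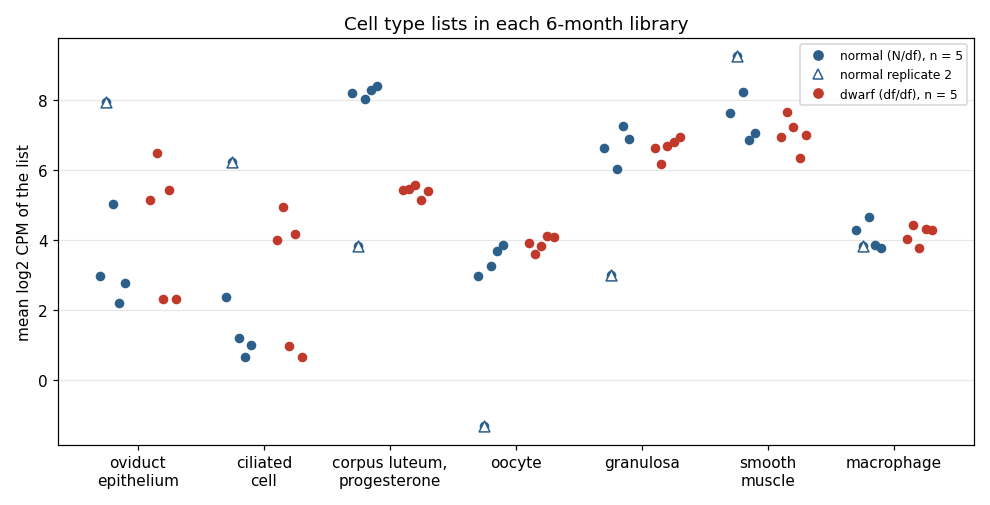
Mean log2 CPM of the genes of 7 marker lists in each of the 10 libraries at 6 months; each point is 1 library and the open triangle is normal replicate 2. That library lies at 7.94 on the oviduct list and at 3.82 on the luteal list, where the other 4 normal libraries lie at 8.02 to 8.41 and the dwarf libraries at 5.15 to 5.58.

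With all 10 libraries, 365 genes were higher and 370 lower in dwarf ovaries by edgeR's quasi-likelihood test (Benjamini-Hochberg adjusted p under 0.05). These are 2.27% and 2.3% of the genes tested, 4.57% together. Without normal replicate 2 the counts were 891 higher and 568 lower of 16272 tested, 5.48% and 3.49%, or 8.97% together. Counts of called genes on every list below stand beside 4.57% of all genes tested in the first fit and 8.97% in the second. Of the 735 genes called with all libraries, 677 were also called without normal replicate 2, all with the same sign. When only the 10 libraries of 6 months were fitted, 233 of the 735 (31.7%) were still called. The libraries of the groups did not overlap for 477 of the 735 called genes and for 5.45% of all genes tested. The median log2 fold change (dwarf over normal) of all tested genes was -0.04 with all libraries and 0.06 without normal replicate 2. Changes over 4-fold were found for 71 genes that rose and 103 that fell. All adjusted p-values below are from the same test over all tested genes, and standard errors (SE) are those of the log2 fold change.

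Genes of the corpus luteum were among the largest falls in dwarf ovaries. Akr1c18 (chr13:4132627-4150631, mm10) encodes the hydroxysteroid dehydrogenase that turns progesterone into a weakly active metabolite, and its rise marks luteal regression. It was at 1.16, 1.06, 0.550, 0.630 and 1.59 CPM in dwarf libraries and 205, 1.75, 141, 384 and 89.9 CPM in normal libraries. The groups did not overlap, but normal replicate 2 lay just above the dwarf libraries and the other 4 were at least 89.9 CPM. The log2 fold change was -7.29, SE 1.30, adjusted p = 0.00345 with all libraries and -7.56, SE 1.10, adjusted p = 0.000367 without that library. Ptgfr (chr3:151798610-151837528), the receptor for prostaglandin F2-alpha, the luteolytic signal, was at 1.20, 3.08, 0.963, 1.54 and 0.500 CPM in dwarf and 122, 3.36, 41.1, 134 and 136 CPM in normal libraries. Its lowest normal library was again replicate 2, close to the highest dwarf library. Ptgfr fell by a log2 fold change of -5.94, SE 0.95, adjusted p = 0.00160, and -6.22, SE 0.77, adjusted p = 0.000108 without replicate 2. Sfrp4 (chr13:19623175-19632823), a secreted Wnt inhibitor known from luteal cells, was at 9.31, 23.4, 5.98, 10.5 and 3.53 CPM in dwarf and 1333, 36.7, 1523, 1273 and 848 CPM in normal libraries. For Sfrp4 the log2 fold change was -6.57, SE 0.92, adjusted p = 0.000656, and -6.84, SE 0.73, adjusted p = 3.47e-05 without replicate 2.

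The enzymes and carriers of progesterone synthesis were lower as well, most of them only once replicate 2 was set aside. Cyp11a1 (chr9:58015017-58027023), the side-chain cleavage enzyme that makes pregnenolone from cholesterol, was at 151, 130.5, 328, 58.6 and 168 CPM in dwarf and 4125, 24.7, 2829, 2949 and 2984 CPM in normal libraries. Normal replicate 2 was below every dwarf library, and the other 4 normal libraries were at 2829 CPM or more. The log2 fold change was -3.95, SE 0.83, adjusted p = 0.00970, and -4.24, SE 0.54, adjusted p = 0.000108 without replicate 2. When only the 10 libraries of 6 months were fitted, the adjusted p was 0.0709. Fdx1 (chr9:51943307-51963533), the ferredoxin that passes electrons to this enzyme, was at 14.8, 18.3, 27.0, 12.5 and 22.3 CPM in dwarf and 286, 8.70, 360.3, 222 and 205 CPM in normal libraries, a log2 fold change of -3.50, SE 0.59, adjusted p = 0.00242. Without replicate 2 it was -3.78, SE 0.32, adjusted p = 1.23e-06. Star, which carries cholesterol into the mitochondrion, was at 285, 192, 579.9, 110.2 and 258 CPM in dwarf and 1181, 43.0, 782, 1204 and 743 CPM in normal libraries, with every dwarf library below the 4 normal libraries other than replicate 2. Star passed the test only without replicate 2 (-1.75, SE 0.39, adjusted p = 0.00860), against an adjusted p of 0.167 with it. Hsd3b1, which makes progesterone from pregnenolone, was at 1110, 1443, 2112, 1732 and 1819 CPM in dwarf and 5186, 50.7, 7993, 4324 and 7445 CPM in normal libraries. It too fell only without replicate 2, by a log2 fold change of -1.89, SE 0.34, adjusted p = 0.00215, with an adjusted p of 0.202 when it was included.

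The receptors that keep a corpus luteum active showed the same dependence on replicate 2. Lhcgr, the luteinizing hormone receptor, was at 24.0, 12.2, 29.2, 11 and 23.5 CPM in dwarf and 84.9, 0.731, 98.3, 128 and 305 CPM in normal libraries. It fell without replicate 2 (-2.92, SE 0.55, adjusted p = 0.00291) and did not pass with it (adjusted p = 0.0763). Prlr, the prolactin receptor, was at 116, 96.2, 182, 95.2 and 127 CPM in dwarf and 337, 11.4, 372, 337 and 526 CPM in normal libraries, with no overlap once replicate 2 is set aside. Its log2 fold change without replicate 2 was -1.64, SE 0.37, adjusted p = 0.00947, against -1.36, SE 0.59, adjusted p = 0.222 with it. Over the whole list of 18 luteal and progesterone synthesis genes, 8 fell and none rose with all libraries, and 14 fell and none rose without replicate 2. The median log2 fold change was -2.01 and -2.18, and all 18 members were negative in both fits. The 8 were Akr1c18, Sfrp4, Ptgfr, Cyp11a1, Fdx1, Timp1, Scarb1 and Cited4, a transcriptional co-regulator with a log2 fold change of -1.80 and adjusted p = 0.0220. Cited4 was at 20.3, 42.8, 9.35, 19.8 and 12.0 CPM in dwarf and 73.4, 115, 75.1, 49.3 and 50.4 CPM in normal libraries. It was highest in normal replicate 2, where the luteal list was low. The Cited4 call was lost without dwarf replicates 1, 3, 4 or 5 (adjusted p from 0.0568 to 0.0754). Those added without replicate 2 were Star, Hsd3b1, Lhcgr, Prlr, Hsd17b7 and Stard4. The list was drawn up with results of these libraries known, so its direction is a description.

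**Figure D2:**
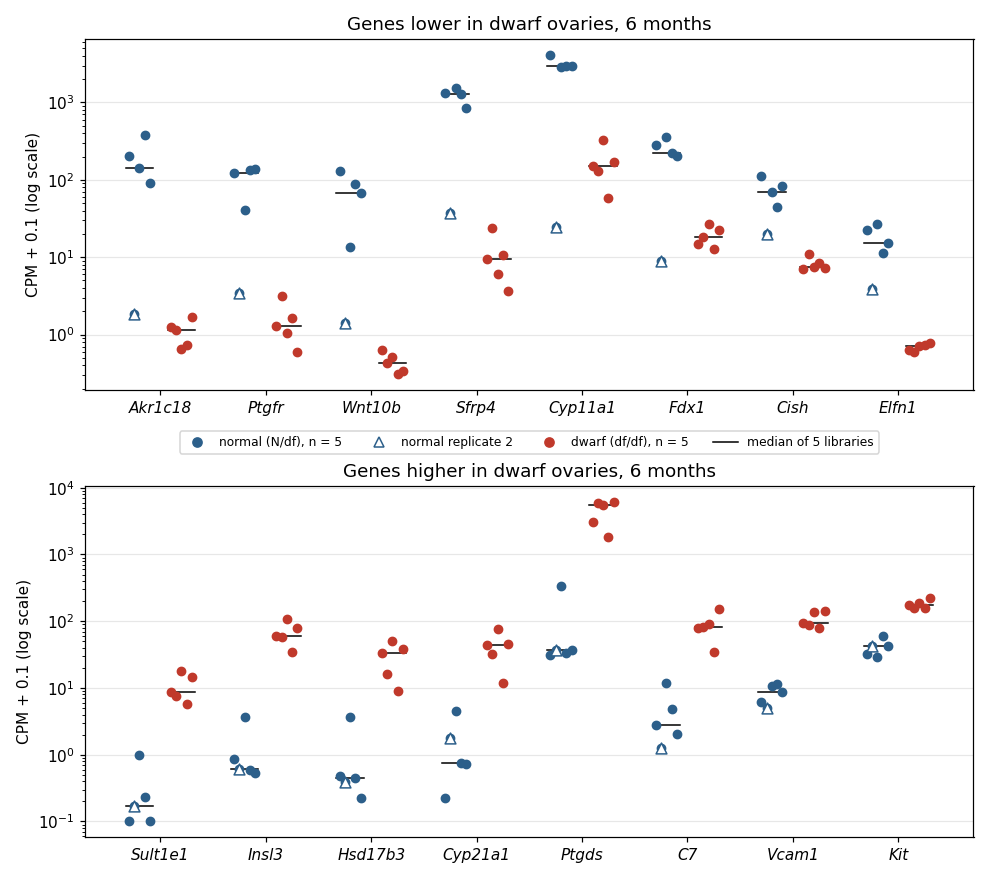
Level in each library (CPM plus 0.1, log axis) of 8 genes that were lower and 8 that were higher in dwarf ovaries at 6 months; points are libraries, open triangles are normal replicate 2 and bars are medians of 5 libraries. Normal replicate 2 lies near or below the dwarf libraries for Akr1c18, Ptgfr, Wnt10b, Sfrp4, Cyp11a1 and Fdx1, and with the normal libraries for all 8 genes that were higher.

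Genes that supply cholesterol for steroid synthesis were mostly lower in dwarf ovaries, and fewer passed the test. Of 31 tested, 4 fell and none rose with all libraries (2.3% of all genes tested fell), and 12 fell and none rose without replicate 2 (3.49%). The median log2 fold change was -0.75, and -0.96 without replicate 2. Dhcr7, the last reductase of cholesterol synthesis, was at 35.1, 42.8, 63.3, 38.7 and 49.1 CPM in dwarf and 306, 51.2, 284, 221 and 394 CPM in normal libraries, and only replicate 2 of the normal group reached the dwarf range. The fitted log2 fold change was -2.46, SE 0.45, adjusted p = 0.00380, and -2.68 without replicate 2. Fdps, which makes farnesyl pyrophosphate, changed alike: the means were 54.1 ± 10.8 CPM in dwarf and 282 ± 147 CPM in normal libraries (SD, n = 5), with a log2 fold change of -2.38, SE 0.48, adjusted p = 0.00742. Mvd, an earlier enzyme of the same route, had a log2 fold change of -1.34 and adjusted p = 0.0467. The Mvd call was lost when any 1 library other than normal replicates 1 and 2 was left out (adjusted p from 0.0545 to 0.108). Scarb1, the receptor that takes up cholesterol from high density lipoprotein, was at 275, 236, 433, 275 and 356 CPM in dwarf and 2056, 89.8, 1450, 1491 and 2199 CPM in normal libraries. It fell by a log2 fold change of -2.21, SE 0.59, adjusted p = 0.0413. That call was lost when any 1 library other than normal replicate 2 was left out, with adjusted p from 0.0516 to 0.107, whereas without replicate 2 it was -2.48, SE 0.42, adjusted p = 0.00120.

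Genes with other known roles made up the rest of the largest falls. Wnt10b (chr15:98771752-98778150), a Wnt ligand, was at 0.535, 0.335, 0.413, 0.210 and 0.235 CPM in dwarf and 129.5, 1.31, 13.4, 88.1 and 67.8 CPM in normal libraries. Its log2 fold change of -7.40, SE 0.98, adjusted p = 0.000392 was the largest fall among called genes whose groups did not overlap and whose higher mean reached 2 CPM. Onecut2, a homeodomain transcription factor, was at 0.346, 0.335, 0.825, 0.560 and 0.442 CPM in dwarf and 113, 0.585, 96.6, 87.2 and 33.4 CPM in normal libraries, a log2 fold change of -7.06, SE 1.24, adjusted p = 0.00322. Every normal library other than replicate 2 was at least 33.4 CPM and no dwarf library reached 1 CPM. Plekhg4, a guanine nucleotide exchange factor, was at 0.913, 1.34, 0.963, 1.12 and 0.971 CPM in dwarf and 232, 0.585, 36.7, 229 and 49.9 CPM in normal libraries, a log2 fold change of -6.70, SE 1.26, adjusted p = 0.00459. Its exons overlap those of Kctd19, and the strand setting of the counting is not given in the sources used here. Wisp2, a matricellular protein, was at 1.48, 0.839, 2.75, 2.31 and 1.77 CPM in dwarf and 109.6, 0.950, 148, 72.7 and 60.3 CPM in normal libraries, a log2 fold change of -5.41, SE 0.92, adjusted p = 0.00242. Cyp4f18, a cytochrome P450 of fatty acid hydroxylation, was at 2.14, 3.13, 1.65, 2.10 and 1.24 CPM in dwarf and 162, 1.90, 164, 132 and 42.0 CPM in normal libraries, with a log2 fold change of -5.60, SE 0.82, adjusted p = 0.000932. For all 5 of these genes normal replicate 2 lay within, below or just above the dwarf range.

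Ces2a, a carboxylesterase, was at 0.126, 0.0559, 0, 0.0700 and 0.353 CPM in dwarf and 1.77, 0.0731, 22.4, 12.6 and 35.9 CPM in normal libraries, and the normal values spread from 0.0731 to 35.9 CPM. On the log2 scale the fold change was -6.57, SE 1.20, adjusted p = 0.00380, moving to -7.43, adjusted p = 0.0100 without dwarf replicate 5 and to -5.83, adjusted p = 0.00892 without normal replicate 5. Slc36a3, of an amino acid transporter family, was at 0.0315, 0.112, 0, 0.0700 and 0 CPM in dwarf and 0.760, 0, 1.79, 0.829 and 6.43 CPM in normal libraries. Its log2 fold change of -5.44, SE 1.15, adjusted p = 0.00902 rests much on normal replicate 5, without which it was -3.84, adjusted p = 0.0486; without dwarf replicate 2 it was -6.06, adjusted p = 0.0147. The adjusted p was 0.0579 without the libraries whose titles carry the numbers 21 to 23. Carboxylesterases are a family of close copies, so counts of Ces2a may be shared with its neighbours. Ssu2 was at 0.346, 0.168, 0.0688, 0.140 and 0.206 CPM in dwarf and 2.66, 1.61, 1.79, 0.916 and 13.1 CPM in normal libraries, where replicate 5 was highest, and its log2 fold change went from -4.35, SE 0.88, adjusted p = 0.00680 to -3.10, adjusted p = 0.0266 without that library. With limma voom the adjusted p of Ssu2 was 0.0535.

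For Elfn1, Adh7 and Tmem200a normal replicate 2 lay well above the dwarf libraries. Elfn1 (chr5:139907943-139974724), a leucine-rich repeat membrane protein known from synapses, was at 0.535, 0.503, 0.619, 0.630 and 0.677 CPM in dwarf and 22.6, 3.80, 26.8, 11.2 and 15.2 CPM in normal libraries. Its change on the log2 scale was -4.69, SE 0.49, adjusted p = 0.000167, and -4.91, SE 0.40, adjusted p = 9.52e-07 without replicate 2. Adh7, an alcohol dehydrogenase that oxidises retinol, was at 0.346, 1.23, 0.138, 0.140 and 0.383 CPM in dwarf and 12.9, 11, 11.6, 4.50 and 5.63 CPM in normal libraries. Normal replicate 2 had the third highest of the 5 normal values for this gene. The fitted value, on the log2 scale, was -4.29, SE 0.58, adjusted p = 0.000445, and -5.05, adjusted p = 0.000259 without dwarf replicate 2. Tmem200a, a membrane protein, was at 0.126, 0.783, 0, 0 and 0.177 CPM in dwarf and 9.25, 6.43, 1.79, 3.27 and 7.55 CPM in normal libraries, a log2 fold change of -4.69, SE 0.75, adjusted p = 0.00148, and of -5.90, adjusted p = 0.000279 without dwarf replicate 2. Its exons overlap those of Gm9767. Sstr1, a receptor for somatostatin, had normal replicate 2 just above the dwarf libraries: it was at 0.472, 0.503, 0.344, 0.560 and 0.471 CPM in dwarf and 20.5, 0.731, 8.94, 5.89 and 40.6 CPM in normal libraries, with a log2 fold change of -5.02, SE 0.96, adjusted p = 0.00514 that was -4.28, adjusted p = 0.0119 without normal replicate 5. The transcript 2010003K11Rik fell by a log2 fold change of -4.30, SE 0.65, adjusted p = 0.000932.

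Sult1e1, Insl3 and Hsd17b3 had the largest rises with all libraries. Sult1e1 (chr5:87575968-87591611), the sulfotransferase that inactivates estrogens, was at 8.65, 7.55, 18.0, 5.67 and 14.5 CPM in dwarf and 0, 0.0731, 0.894, 0.131 and 0 CPM in normal libraries. Every dwarf library was above every normal library, and normal replicates 1 and 5 had no count at all. The log2 fold change was 6.91, SE 0.79, adjusted p = 0.000173, and 6.91, SE 0.85, adjusted p = 8.21e-05 without replicate 2. Insl3 (chr8:71689252-71690577), a peptide hormone of theca cells and of Leydig cells in the testis, was at 60.6, 58.1, 107, 34.2 and 79.6 CPM in dwarf and 0.760, 0.512, 3.58, 0.480 and 0.433 CPM in normal libraries. The highest normal value was in replicate 3, the shallowest library. For Insl3 the log2 fold change was 6.68, SE 0.79, adjusted p = 0.000237, and 6.70, SE 0.86, adjusted p = 0.000122 without replicate 2. Its exons overlap those of Jak3. Hsd17b3 (chr13:64058274-64089201), which makes testosterone from androstenedione and is best known from the testis, was at 33.5, 15.9, 51.2, 8.96 and 38.0 CPM in dwarf and 0.380, 0.292, 3.58, 0.349 and 0.124 CPM in normal libraries. The fitted log2 fold change was 6.18, SE 0.78, adjusted p = 0.000237, and 6.19, SE 0.85, adjusted p = 0.000204 without replicate 2. Normal replicate 3 was again the highest of its group.

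Cyp21a1 (chr17:34801348-34804426), the hydroxylase of corticosteroid synthesis, was at 44.2, 32.4, 77.4, 11.6 and 45.6 CPM in dwarf and 0.127, 1.68, 4.47, 0.654 and 0.619 CPM in normal libraries, a log2 fold change of 5.43, SE 0.84, adjusted p = 0.00137. Without replicate 2 it was 5.96, SE 0.94, adjusted p = 0.00075, and with limma voom the adjusted p was 0.0800. Cyp21a1 also marks the adrenal cortex. Of the other markers of that tissue, Cyp11b2 had no count in any of the 10 libraries, and Cyp11b1 and Mc2r had means of at most 0.0844 CPM in either group. Mrap, the accessory protein of that receptor, was lower in dwarf ovaries without replicate 2 (-1.86, SE 0.50, adjusted p = 0.0258; with it, adjusted p = 0.236). Of 6 adrenal markers, 2 had enough counts to be tested with all libraries, and Cyp21a1 rose. The summed level of the 6 was 30.95 to 132.2 CPM in dwarf libraries, 76.0 to 168.1 CPM in 4 normal libraries and 3.51 CPM in normal replicate 2. Mrap made up most of it in those 4 normal libraries (74.9 to 161.8 CPM, against 18.9 to 54.1 CPM in dwarf libraries). The sum thus joins opposite moves of Mrap and Cyp21a1. Cyp21a1 has a pseudogene copy beside it in the mouse genome, so reads may be shared.

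Of 15 genes on the androgen and theca list, Insl3 and Hsd17b3 rose with all libraries and none fell, and without replicate 2 Srd5a1 fell as well. The median log2 fold change was 0.50, and 0.21 without replicate 2. Srd5a1, the steroid reductase that turns testosterone into dihydrotestosterone, was at 16.7, 14.5, 16.3, 23.8 and 20.6 CPM in dwarf and 81.9, 5.19, 82.2, 35.3 and 72.3 CPM in normal libraries, a log2 fold change of -1.84, SE 0.26, adjusted p = 0.000239 without replicate 2 and -1.57, SE 0.45, adjusted p = 0.0525 with it. It also passed without normal replicate 4 (-1.74, adjusted p = 0.0442). Cyp17a1, which makes the androgen precursor and is the classic theca enzyme, did not pass in either fit. Its levels were 238, 206, 621, 78.4 and 319 CPM in dwarf and 80.6, 3.22, 153, 597 and 199 CPM in normal libraries, overlapping across their range. The 95% interval of its log2 fold change ran from -1.25 to 2.24, which bounds a fall more tightly than a rise. Cyp19a1, the aromatase that makes estrogens, was at 1.42, 0.783, 3.10, 3.15 and 3.03 CPM in dwarf and 2.41, 0, 3.58, 45.2 and 2.66 CPM in normal libraries. Its log2 fold change of -2.29 (adjusted p = 0.249) came from normal replicate 4 alone, and was 0.21, adjusted p = 0.928 without that library. On the list of 17 genes of estrogen and prostaglandin action, Sult1e1 and Hpgd rose and Ptgfr fell, with Ptgis rising too without replicate 2. Hpgd, which inactivates prostaglandins, was at 48.9, 37.1, 40.0, 30.9 and 48.3 CPM in dwarf and 12.3, 9.65, 17.0, 11.1 and 20.9 CPM in normal libraries, with no overlap and a log2 fold change of 1.55, SE 0.26, adjusted p = 0.00177.

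The rest of the leading rises were of genes with varied roles. Ptgds (chr2:25466712-25469749), a prostaglandin D synthase and carrier of lipids, was at 3053, 5907, 5448, 1856 and 6033 CPM in dwarf and 30.9, 36.4, 341, 33.7 and 36.5 CPM in normal libraries. All normal libraries but replicate 3 lay between 30.9 and 36.5 CPM, and all dwarf libraries were at 1856 CPM or more. The log2 fold change was 5.61, SE 0.76, adjusted p = 0.000524, and 7.02, adjusted p = 5.55e-06 without normal replicate 3. Fabp3, a fatty acid binding protein, was at 591, 570.2, 895, 352 and 844 CPM in dwarf and 42.2, 11.8, 151, 58.0 and 30.9 CPM in normal libraries, a log2 fold change of 3.53, SE 0.56, adjusted p = 0.00148, and of 4.19, adjusted p = 0.000307 without normal replicate 3. C7, a component of the complement attack complex, was at 78.0, 81.5, 89.8, 34.7 and 151 CPM in dwarf and 2.66, 1.17, 11.6, 4.67 and 1.92 CPM in normal libraries. On the log2 scale the fold change was 4.70, SE 0.58, adjusted p = 0.000237, and 4.52, SE 0.58, adjusted p = 0.000122 without replicate 2. Vcam1, an adhesion molecule that binds leukocytes, was at 92.3, 88.8, 138, 77.9 and 141 CPM in dwarf and 6.08, 4.90, 10.7, 11.2 and 8.72 CPM in normal libraries, with a log2 fold change of 3.73, SE 0.51, adjusted p = 0.000531. Neither C7 nor Vcam1 overlapped between the groups.

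Serpina3c, a serine protease inhibitor of a family of close copies, rose by a log2 fold change of 3.41, SE 0.49, adjusted p = 0.000692. The predicted gene Gm5294 was at 20.5, 5.25, 24.8, 11.8 and 10.6 CPM in dwarf and 0.380, 0, 0.894, 4.62 and 0.247 CPM in normal libraries. Its change on the log2 scale was 3.42, SE 0.88, adjusted p = 0.0313; it was 5.92, adjusted p = 0.00176 without normal replicate 4, and the call was lost without dwarf replicates 1, 3 or 5 or normal replicates 1 or 5 (adjusted p from 0.0509 to 0.0707).

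Among genes of hormone signalling, Cish fell in both fits. Cish (chr9:107296689-107301961), a feedback inhibitor that STAT5 induces after prolactin or growth hormone binds, was at 7.02, 10.9, 7.43, 8.40 and 7.12 CPM in dwarf and 112, 20.0, 68.8, 43.9 and 83.3 CPM in normal libraries. All dwarf libraries lay between 7.02 and 10.9 CPM, and the lowest normal library, replicate 2, was at 20.0 CPM. For Cish the log2 fold change was -3.00, SE 0.49, adjusted p = 0.00183, and -3.20, SE 0.45, adjusted p = 0.000233 without replicate 2. Of 15 genes of growth hormone and prolactin signalling, 2 fell and none rose with all libraries (Cish and Stat5a), and 2 fell and none rose without replicate 2 (Cish and Prlr). The median log2 fold change was -0.09 and -0.05. Stat5a was at 48.9, 55.2, 41.3, 52.5 and 43.3 CPM in dwarf and 77.1, 179, 42.0, 90.5 and 74.9 CPM in normal libraries, highest in normal replicate 2. Its log2 fold change of -0.95, SE 0.27, adjusted p = 0.0491 lost its call when any 1 library other than normal replicates 3 and 5 was left out (adjusted p from 0.0524 to 0.138), and was -0.54 without replicate 2. Socs2, another STAT5 target and feedback inhibitor, was at 143, 81.1, 91.1, 147 and 171 CPM in dwarf and 141, 60.6, 51.0, 157 and 150.0 CPM in normal libraries. Its 95% interval of -0.44 to 0.77 on the log2 scale leaves out a change of the size seen for Cish. Ghr, the growth hormone receptor, had means of 35.6 ± 8.72 CPM in dwarf and 23.2 ± 7.20 CPM in normal libraries (SD, n = 5) and did not pass (log2 fold change 0.59, SE 0.22, adjusted p = 0.149).

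The promoters of Cish, Elfn1 and Sult1e1 are shown as picked examples, Cish because it is the textbook target of STAT5. Their groups did not overlap, which held for 477 of the 735 called genes. Each run is 300 bases from RefSeq (GRCm38.p6), 250 before and 50 after the annotated start, read 5′ to 3′ on the gene's strand. Capitals mark every match to 2 patterns: TTCNNNGAA, the palindrome that STAT factors bind, and AAGGTCA on either strand, the letters that the orphan receptor NR5A1 binds. The patterns do not overlap each other in these runs.
Cish, chr9:107296409-107296708, plus strand: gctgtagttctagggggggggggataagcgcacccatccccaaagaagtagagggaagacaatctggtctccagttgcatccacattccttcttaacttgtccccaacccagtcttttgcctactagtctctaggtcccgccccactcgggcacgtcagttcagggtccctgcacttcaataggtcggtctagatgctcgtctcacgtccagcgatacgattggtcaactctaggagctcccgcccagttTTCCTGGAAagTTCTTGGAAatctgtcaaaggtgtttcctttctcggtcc
Elfn1, chr5:139907616-139907915, plus strand: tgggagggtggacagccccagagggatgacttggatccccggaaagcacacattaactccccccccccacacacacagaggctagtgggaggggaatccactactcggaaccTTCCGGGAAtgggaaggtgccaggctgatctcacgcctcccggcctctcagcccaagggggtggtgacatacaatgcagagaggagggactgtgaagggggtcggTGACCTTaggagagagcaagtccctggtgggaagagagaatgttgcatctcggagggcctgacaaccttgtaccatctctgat
Sult1e1, chr5:87591562-87591861, minus strand: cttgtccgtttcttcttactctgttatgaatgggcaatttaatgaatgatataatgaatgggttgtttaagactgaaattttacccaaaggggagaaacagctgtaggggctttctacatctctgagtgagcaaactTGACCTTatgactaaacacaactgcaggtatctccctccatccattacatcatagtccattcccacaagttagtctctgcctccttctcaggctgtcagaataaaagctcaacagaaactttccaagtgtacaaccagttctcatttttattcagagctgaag
Cish held 2 STAT matches, beginning 0 and 11 bases after the RefSeq start, which lies 30 bases from the start in the deposited annotation. Elfn1 held 1 STAT match 138 bases before its start and 1 NR5A1 match 33 bases before it on the other strand. Sult1e1 held 1 NR5A1 match, 113 bases before its start on the other strand, and no STAT match. Over all 27025 promoters of the same length, 9.55% held at least 1 STAT match and 5.38% at least 1 NR5A1 match. A match describes letters and does not show binding. As the promoters shown were picked, they cannot be set against these shares, and whether matches were more frequent among changed genes was not tested.

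Local growth factor genes changed by smaller amounts. Igf1 was at 105, 77.9, 123, 93.8 and 113 CPM in dwarf and 53.7, 90.9, 55.4, 53.5 and 96.8 CPM in normal libraries and did not pass in either fit, with a log2 fold change of 0.54, SE 0.30, adjusted p = 0.354. The 95% interval of that value was -0.04 to 1.12, so a fall of the size seen for Cish lies outside it. Igf2, a fetal growth factor also made by theca cells, was at 48.6, 71.0, 64.4, 51.0 and 52.1 CPM in dwarf and 28.9, 24.0, 26.8, 24.0 and 21.5 CPM in normal libraries. The groups did not overlap and the log2 fold change was 1.20, SE 0.21, adjusted p = 0.00286. Its exons overlap those of the antisense gene Igf2as, whose reads cannot be told apart here. Irs2, an adaptor of the insulin receptor, was at 83.0, 60.1, 85.6, 80.2 and 80.5 CPM in dwarf and 53.0, 16.1, 23.2, 26.3 and 44.4 CPM in normal libraries, with a log2 fold change of 1.24, SE 0.25, adjusted p = 0.00623. With only the 10 libraries of 6 months the adjusted p of Irs2 was 0.0727. Igfbp4, a binding protein that holds back these growth factors, fell by a log2 fold change of -1.01, SE 0.22, adjusted p = 0.0112, and its adjusted p was 0.0508 without dwarf replicate 1 and 0.0693 with only the 10 libraries of 6 months. Of 18 genes of this system, 2 rose and 1 fell; Pappa, the protease that cleaves Igfbp4, was added to the falls without replicate 2 (log2 fold change -2.17, adjusted p = 0.0222). The list median was -0.02, and 0.35 without replicate 2.

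Downstream of the insulin receptor, Pik3r1 rose and Sgk1 fell among 25 genes, and Sesn1 rose as well without replicate 2. Sgk1 (chr10:21882184-21999902), a kinase activated by this pathway and induced by steroid hormones, was at 25.6, 27.8, 24.5, 23.2 and 25.7 CPM in dwarf and 185, 83.0, 100.1, 128 and 263 CPM in normal libraries. The 5 dwarf libraries lay within 23.2 to 27.8 CPM and every normal library was at 83.0 CPM or more. The fitted value, on the log2 scale, was -2.59, SE 0.29, adjusted p = 0.000173. Pik3r1, a regulatory subunit of the lipid kinase, was at 318, 217, 242, 272 and 298 CPM in dwarf and 128, 112, 99.2, 139.6 and 204 CPM in normal libraries, a log2 fold change of 0.97, SE 0.18, adjusted p = 0.00436. Sesn1, a stress-induced inhibitor of mTOR, was near the threshold: its log2 fold change was 0.49, SE 0.14, adjusted p = 0.0509, and it passed without dwarf replicates 3 or 4 or normal replicates 1 or 2 (adjusted p = 0.0258, 0.0431, 0.0444 and 0.0375). Foxo1 and Foxo3, transcription factors that insulin signalling restrains, did not pass, with log2 fold changes of 0.57, SE 0.28, adjusted p = 0.288 and 0.44, SE 0.22, adjusted p = 0.290. The list median was 0.05, and 0.09 without replicate 2.

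Among the genes that handle thyroid hormone, a receptor and its partner rose. Thra, a receptor, was at 247, 271, 251, 231 and 299 CPM in dwarf and 184, 135, 137, 170.1 and 160.5 CPM in normal libraries, with no overlap and a log2 fold change of 0.72, SE 0.15, adjusted p = 0.00731. Its partner Rxra rose by a log2 fold change of 0.75, SE 0.15, adjusted p = 0.00609, also with no overlap. The Rxra call was lost when only the 10 libraries of 6 months were fitted (adjusted p = 0.0669). Thrb was at 16.1, 17.0, 11.7, 13.4 and 13.2 CPM in dwarf and 19.6, 20.0, 17.9, 29.9 and 19.6 CPM in normal libraries; the groups did not overlap, but it did not pass (log2 fold change -0.59, SE 0.20, adjusted p = 0.110). Dio2, which activates the hormone within the tissue, overlapped between the groups and did not pass (-0.91, SE 0.56, adjusted p = 0.422). Without dwarf replicate 2 it was -1.78, adjusted p = 0.0594. Thra and Rxra were the 2 of 15 genes of this list that passed, in either fit. The list median was -0.22, and 0.04 without replicate 2.

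Of 73 genes on the granulosa, oocyte and ovulation lists, 3 passed the test with all libraries (4.11%), close to the 4.57% of all genes tested. Fshr, the receptor that follicle stimulating hormone acts on in granulosa cells, was at 26.2, 16.4, 33.7, 34.7 and 26.0 CPM in dwarf and 21.2, 0.219, 3.58, 29.5 and 36.8 CPM in normal libraries. The log2 fold change was 0.54, SE 0.76, adjusted p = 0.770. Amh, made by granulosa cells of growing follicles, was at 475, 238, 369, 434 and 431 CPM in dwarf and 199.5, 4.38, 172, 318 and 182 CPM in normal libraries. Only normal replicate 4 reached the dwarf range, and Amh did not pass (1.15, SE 0.61, adjusted p = 0.336), with a 95% interval of -0.05 to 2.35. Of 24 granulosa genes, 1 rose and none fell with all libraries, and 2 rose and 1 fell without replicate 2. The medians were 0.25 and 0.02. Bex2 was the one that rose in both fits: it was at 16.1, 7.60, 13.6, 14.2 and 15.1 CPM in dwarf and 3.17, 1.68, 8.94, 7.46 and 3.15 CPM in normal libraries, a log2 fold change of 1.55, SE 0.37, adjusted p = 0.0206. That call was lost without dwarf replicate 1 or normal replicates 1 or 5 (adjusted p from 0.0502 to 0.0552). Wt1, a transcription factor of granulosa and surface cells, rose without replicate 2 (0.92, SE 0.22, adjusted p = 0.0121; with it, adjusted p = 0.144). Inhba, the subunit of activin A and inhibin A that large follicles make, was at 6.20, 12.2, 8.87, 19.4 and 37.5 CPM in dwarf and 58.6, 3.00, 89.4, 354 and 113 CPM in normal libraries and fell without replicate 2 (-3.16, SE 0.74, adjusted p = 0.0126), against an adjusted p of 0.0714 with it. Of 14 genes of ovulation, Runx2 alone fell: the transcription factor was at 12.5, 10.6, 9.15, 10.4 and 15.3 CPM in dwarf and 165, 6.50, 52.8, 94.8 and 259.5 CPM in normal libraries, a log2 fold change of -3.33, SE 0.64, adjusted p = 0.00529, with an adjusted p of 0.0502 when only the 10 libraries of 6 months were fitted.

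On the oocyte list, Kit was the single gene to rise with all libraries. Kit (chr5:75574987-75656721), the receptor for the granulosa factor Kitl on oocytes, was at 173, 156, 189.6, 157 and 226 CPM in dwarf and 32.2, 42.2, 29.5, 59.6 and 42.1 CPM in normal libraries. Every dwarf library was at least 156 CPM and no normal library exceeded 59.6 CPM. For Kit the log2 fold change was 2.12, SE 0.32, adjusted p = 0.000932, and 2.15, SE 0.35, adjusted p = 0.000751 without replicate 2. Theca and mast cells also carry Kit. In normal replicate 2 the mean log2 CPM of the oocyte list was -1.31, against 2.97 to 3.85 in the other normal libraries. Kit was at 42.2 CPM there, within the 29.5 to 59.6 CPM of those libraries, so in that library it did not follow the list. Gdf9, a factor secreted by oocytes, was at 125, 94.2, 117, 156 and 123 CPM in dwarf and 75.5, 1.17, 98.3, 118 and 122 CPM in normal libraries, and Zp3, of the zona pellucida, at 96.0, 77.4, 92.2, 124 and 102 and 57.3, 0.512, 86.7, 84.0 and 89.6 CPM. Neither passed: without replicate 2 the log2 fold changes were 0.28, SE 0.30, adjusted p = 0.607 for Gdf9 and 0.35, SE 0.44, adjusted p = 0.684 for Zp3. Of 35 oocyte genes, 1 rose and none fell with all libraries, where 4.57% of all genes tested were called. Without replicate 2, 3 rose and none fell, where 8.97% of all genes tested were called. The medians were 0.64 and 0.35. The 2 added genes, Sohlh1 and Sohlh2, are transcription factors of small follicles. Sohlh1 was at 5.85, 5.25, 5.23, 3.85 and 6.59 CPM in dwarf and 1.14, 0, 1.79, 1.53 and 1.42 CPM in normal libraries, with no overlap, and its log2 fold change was 1.95, SE 0.48, adjusted p = 0.0145 without replicate 2 and 2.29, SE 0.67, adjusted p = 0.0560 with it. Sohlh2 was 1.77, SE 0.54, adjusted p = 0.0444 without replicate 2 (with it, adjusted p = 0.0765). Lhx8, another factor of that stage, did not pass in either fit (log2 fold change 0.48, adjusted p = 0.586 without replicate 2). Of the 9 factors of primordial follicles tested, these 2 passed without replicate 2 and none with it, and all 9 were positive in both fits.

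**Figure D3:**
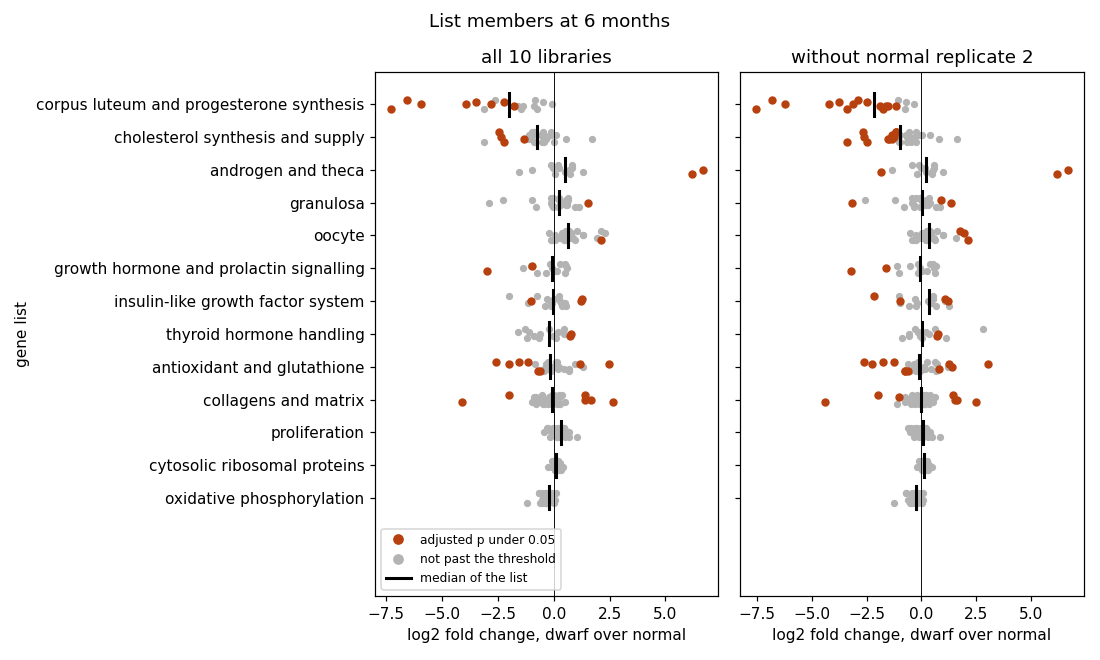
Log2 fold change (dwarf over normal) of each gene of 13 lists at 6 months, with all 10 libraries on the left and without normal replicate 2 on the right; each point is 1 gene, coloured where its adjusted p is under 0.05, and bars are list medians. The luteal list has its median at -2.01 on the left and -2.18 on the right, and the ribosomal protein list at 0.09 and 0.12.

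Matrix genes changed in both directions. With all libraries 4 of 37 rose and 2 fell, where 4.57% of all genes tested were called. Ctgf (chr10:24595442-24598682), a matricellular target of the Hippo pathway, was at 622, 357, 619.7, 497 and 692 CPM in dwarf and 132, 31.5, 93.9, 105 and 77.8 CPM in normal libraries, a log2 fold change of 2.67, SE 0.30, adjusted p = 0.000173. Fbln5, an elastic fibre protein, was at 47.3, 38.6, 57.4, 36.5 and 60.4 CPM in dwarf and 18.6, 22.3, 17.9, 15.8 and 16.1 CPM in normal libraries, a log2 fold change of 1.41, SE 0.20, adjusted p = 0.000591. Fmod, a small proteoglycan that binds collagen, rose by a log2 fold change of 1.40, SE 0.25, adjusted p = 0.00286, and Cyr61, another Hippo target, by 1.66 (adjusted p = 0.00509). These 4 had higher levels in dwarf ovaries among 37 matrix genes, and Lum and Tnc had lower ones. Tnc, an adhesion-modulating glycoprotein, was at 42.1, 30.0, 37.5, 30.9 and 39.1 CPM in dwarf and 1256, 18.1, 514, 902 and 409 CPM in normal libraries, with replicate 2 of the normal group below the dwarf libraries. The fitted log2 fold change was -4.11, SE 0.77, adjusted p = 0.00444, and -4.39, SE 0.56, adjusted p = 0.000122 without replicate 2. Loxl2, which crosslinks collagen, was added to the falls without replicate 2 (-1.02, adjusted p = 0.0138). The list median was -0.08, and -0.01 without replicate 2.

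Of 20 metalloproteinases and inhibitors, Adamts5 rose and Mmp15 and Timp1 fell, with Timp2 rising and Mmp9 falling as well without replicate 2. Adamts5, which cleaves aggrecan and versican, was at 78.3, 44.8, 108, 80.6 and 58.7 CPM in dwarf and 22.1, 8.33, 14.3, 20.9 and 37.4 CPM in normal libraries, a log2 fold change of 1.82, SE 0.34, adjusted p = 0.00380. Mmp15, a membrane metalloproteinase, fell by a log2 fold change of -1.05, SE 0.22, adjusted p = 0.00784, with an adjusted p of 0.0516 when only the 10 libraries of 6 months were fitted. Timp1 was at 22.9, 17.0, 36.8, 23.5 and 26.7 CPM in dwarf and 145, 6.43, 173, 476 and 97.1 CPM in normal libraries. On the log2 scale the fold change was -2.82, SE 0.64, adjusted p = 0.0159, and -2.08, adjusted p = 0.0430 without normal replicate 4; the adjusted p was 0.0504 without dwarf replicate 1. Vegfa, the main growth factor of vessels, was at 79.1, 90.5, 104, 86.2 and 72.1 CPM in dwarf and 213, 183, 135, 289 and 187 CPM in normal libraries. The groups did not overlap and the log2 fold change was -1.23, SE 0.16, adjusted p = 0.00036. It was the single call among 20 vascular genes, close to the 4.57% of all genes tested. Aplnr, the apelin receptor, joined it without replicate 2 (-1.18, SE 0.21, adjusted p = 0.00152), in the fit where 8.97% of all genes tested were called. With replicate 2 the adjusted p of Aplnr was 0.0888. None of 14 endothelial markers passed in either fit, and their mean log2 CPM was 5.47 to 6.13 in dwarf libraries and 5.62 to 5.95 in the 4 normal libraries.

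Stress response genes also split. Of 31 antioxidant and glutathione genes, 2 rose and 6 fell with all libraries, and 4 rose and 7 fell without replicate 2. Srxn1, which restores oxidised peroxiredoxins, was at 7.65, 12.6, 7.08, 5.60 and 5.39 CPM in dwarf and 34.4, 36.8, 25.0, 96.2 and 33.4 CPM in normal libraries, a log2 fold change of -2.58, SE 0.34, adjusted p = 0.000392. Hmox1, the heme oxygenase, fell by a log2 fold change of -2.0, SE 0.42, adjusted p = 0.00885; with only the 10 libraries of 6 months the adjusted p was 0.0801. The other falls were Cat, Gpx3, Mgst1 and Prdx1, with log2 fold changes of -0.63, -1.55, -0.69 and -1.14. The calls of Cat, Gpx3 and Mgst1 were lost without dwarf replicates 1, 3, 4 or 5 or normal replicates 1 or 3, and those of Gpx3 and Mgst1 also without dwarf replicate 2 (adjusted p from 0.0547 to 0.0941, 0.0523 to 0.0956 and 0.0581 to 0.122). Prdx1 lost its call with only the 10 libraries of 6 months (adjusted p = 0.0690). Gsta3, a glutathione transferase that also isomerises steroids, was at 57.2, 47.4, 109.5, 42.2 and 64.6 CPM in dwarf and 8.37, 23.2, 15.2, 6.94 and 5.51 CPM in normal libraries, a log2 fold change of 2.47, SE 0.39, adjusted p = 0.00148. It belongs to a family of close copies. Nqo1, a quinone reductase, rose by 1.19 (adjusted p = 0.00885, and 0.0649 with only the 10 libraries of 6 months). The list median was -0.16, and -0.09 without replicate 2.

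No proliferation gene passed in either fit of 35 tested, and Mki67 was at 81.8, 35.9, 54.0, 89.8 and 67.9 CPM in dwarf and 46.9, 6.72, 33.1, 81.4 and 162 CPM in normal libraries. Its change on the log2 scale was -0.02 with a 95% interval of -1.30 to 1.27, and the normal libraries spread far more widely than the dwarf ones. Among 13 cell cycle inhibitors, Cdkn1a and Cdkn2b fell in both fits. Cdkn2b was at 3.56, 8.44, 1.17, 3.71 and 1.38 CPM in dwarf and 27.0, 16.3, 14.3, 28.5 and 6.31 CPM in normal libraries, overlapping in 1 library of each group, with a log2 fold change of -2.35, SE 0.54, adjusted p = 0.0162. Without dwarf replicate 2 it was -2.96, adjusted p = 0.00483, and without dwarf replicates 1 or 5 the adjusted p was 0.0531 or 0.0581. Cdkn1a had a log2 fold change of -1.24, SE 0.31, adjusted p = 0.0271, and the call was lost without dwarf replicates 1, 3, 4 or 5 or normal replicate 4 (adjusted p from 0.0542 to 0.0924). None of 40 cytosolic ribosomal protein genes and none of 40 oxidative phosphorylation genes passed in either fit. Their medians were 0.09 and -0.24 with all libraries.

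Of 128 genes on 8 immune lists, 6 passed with all libraries (4.69%), close to the 4.57% of all genes tested. None of 19 macrophage, 12 T and NK cell, 13 B and plasma cell or 9 MHC class II genes tested with all libraries passed in either fit. All 9 MHC class II genes were positive in both fits (medians 1.15 and 1.63). With all libraries 11 B and plasma cell, 10 T and NK cell and 10 macrophage genes were positive (medians 1.30, 0.79 and 0.14). The mean log2 CPM of each of these 4 lists overlapped between the dwarf libraries and the 4 normal libraries other than replicate 2. Of 21 complement genes, C7 and C4a rose and Cfd fell with all libraries, and C7, C4a and C3 rose without replicate 2. C4a, a complement component with a close copy, had a log2 fold change of 0.84, SE 0.24, adjusted p = 0.0481. Its call was lost when any 1 library other than normal replicate 2 was left out (adjusted p from 0.0508 to 0.116). C3 followed the oviduct markers. It was at 1214, 2663, 115, 2136 and 102 CPM in dwarf and 310.4, 7954, 216, 104 and 103 CPM in normal libraries, highest in normal replicate 2 and in dwarf replicates 1, 2 and 4. For C3 the log2 fold change was 2.82, SE 0.80, adjusted p = 0.0341 without replicate 2 and -0.48, SE 1.06, adjusted p = 0.864 with it. Cxcl1, a chemokine for neutrophils, was the single call among 20 chemokines. It was at 8.06, 3.80, 8.87, 8.82 and 8.89 CPM in dwarf and 2.28, 0.0731, 4.47, 1.14 and 2.85 CPM in normal libraries, a log2 fold change of 2.05, SE 0.57, adjusted p = 0.0458. That call was lost without dwarf replicates 1, 3, 4 or 5 or normal replicates 1 or 4 (adjusted p from 0.0717 to 0.102). Of 8 mast cell genes, Kit rose and Tpsb2, a tryptase, fell (-1.70, SE 0.46, adjusted p = 0.0388), and without replicate 2 Kit and Hdc rose. The Tpsb2 call was lost without dwarf replicates 1, 3, 4 or 5 or normal replicates 1, 2 or 3 (adjusted p from 0.0557 to 0.115). Hdc, which makes histamine, was at 131, 182, 37.8, 134 and 25.8 CPM in dwarf and 36.4, 836, 34.9, 15.8 and 29.1 CPM in normal libraries, again highest in normal replicate 2, with a log2 fold change of 1.89, SE 0.53, adjusted p = 0.0315 without that library.

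Some of the leading rises without normal replicate 2 were of genes with high levels in that library. Klk1b24 and Klk1b21, kallikreins of a family of close copies, were among the 10 largest rises in that fit. Klk1b24 was at 2.14, 5.25, 1.79, 2.87 and 2.38 CPM in dwarf libraries and had no count in the normal libraries other than replicate 2, where it was 13.9 CPM. Against a floor of 3 counts over those 4 libraries it was at least 46.0-fold higher in dwarf ovaries. Klk1b21 was at 2.33, 4.86, 0.481, 4.34 and 0.883 CPM in dwarf and 0, 28.1, 0, 0 and 0.0619 CPM in normal libraries, with 1 count in all in the 4 other normal libraries. Its highest dwarf values, like those of Ovgp1, were in replicates 1, 2 and 4. Cwh43 was at 8.12, 14.0, 0.206, 4.76 and 0.442 CPM in dwarf and 0.127, 62.0, 0, 0.131 and 0.186 CPM in normal libraries, and Nell1, a secreted growth regulator, at 2.46, 10.6, 0.963, 0.840 and 1.27 and 0.507, 5.63, 0, 0.131 and 0 CPM. None of these 4 passed with all libraries, where the adjusted p was between 0.586 and 0.978. Of 12 oviduct markers, none passed with all libraries and Ovgp1 alone rose without replicate 2 (3.53, SE 0.97, adjusted p = 0.0299). With all libraries 11 of the 12 were negative (median log2 fold change -0.83), and without replicate 2 all 12 were positive (median 1.79). Of 11 ciliated cell markers, none passed with all libraries, where 9 were negative (median -0.50). All 11 were positive without replicate 2 (median 2.59). Without replicate 2, Tekt1, Tppp3 and Fam183b rose, with log2 fold changes of 3.27, 1.68 and 2.98 and adjusted p of 0.0450, 0.0453 and 0.0453. The summed level of the oviduct list was 107.5 to 2027 CPM in dwarf libraries, 122.7 to 505.1 CPM in the 4 normal libraries and 7998 CPM in normal replicate 2. With the mean log2 CPM of that list as a covariate, 727 of the 735 genes called with all libraries were still called.

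A few adipocyte markers were lower in dwarf libraries. Of 13 tested, 3 fell and none rose with all libraries, with a median log2 fold change of -2.25, and 3 fell and 1 rose without replicate 2, with a median of -1.79. Plin4, a lipid droplet coat protein, was the one that fell in both. It was at 29.1, 35.1, 42.9, 18.4 and 23.4 CPM in dwarf and 478, 105, 221, 241 and 816 CPM in normal libraries, with no overlap and a log2 fold change of -3.65, SE 0.60, adjusted p = 0.00199. Its exons overlap those of Hdgfrp2. Cfd, the adipocyte protease adipsin, and Pck1, of glyceroneogenesis, had log2 fold changes of -3.21, SE 0.87, adjusted p = 0.0427 and -2.49, SE 0.69, adjusted p = 0.0458. Both calls were lost without dwarf replicates 1, 3, 4 or 5 or normal replicates 1, 2 or 4, with adjusted p from 0.0584 to 0.105 for Cfd and 0.0503 to 0.126 for Pck1. Without normal replicate 2 the value for Cfd was -2.60. Plin1 and Pparg, which luteal cells also express, fell without replicate 2 (-1.37, SE 0.36, adjusted p = 0.0218 and -1.15, SE 0.30, adjusted p = 0.0226), and Cidea rose (3.93, adjusted p = 0.0267). With replicate 2 the adjusted p was 0.0921 for Plin1, 0.119 for Pparg and 0.95 for Cidea, whose log2 fold change was then 0.21. Like Ovgp1, Cidea was highest in normal replicate 2 (34.9 CPM) and high in dwarf replicates 1, 2 and 4 (8.81, 28.1 and 8.61 CPM). It was at most 1.27 CPM in every other library. The summed level of the list was 114.8 to 255.6 CPM in dwarf libraries, 382.7 to 1081 CPM in the 4 normal libraries and 782.4 CPM in normal replicate 2; whether fat attached to the ovary had a part in these falls was not tested.

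The same genotype contrast at 22 months called 614 genes, 3.81% of those tested. Of the 735 genes called at 6 months, 254 were also called at 22 months, 34.6% of the first set and 41.4% of the second, all with the same sign. The contrasts use different libraries, though they share 1 estimate of the spread. Among all 735, the sign at 22 months was the same for 687, or 93.5%, against 65.4% of all tested genes. With edgeR no gene passed the test of the difference between ages, although 1127 were below 0.05 before adjustment. The counts were 17 with DESeq2 and 9 with limma voom. Without normal replicate 2, 1 gene passed (0.00615% of 16272), the carboxylesterase Ces1d, with a difference of -2.22 on the log2 scale (SE 0.32, adjusted p = 0.0178). All libraries of 22 months had Ovgp1 at 1313 to 3025 CPM, a level that only normal replicate 2 reached at 6 months. Ces1d was at 157 CPM in that library and at most 14.1 CPM in the other normal libraries of 6 months. Whether oviduct content had a part in the Ces1d difference was not tested. Sult1e1, Hsd17b3, Ptgds and C7 had log2 fold changes at 22 months of 7.30, 7.28, 5.47 and 5.25, with adjusted p of 2.68e-05, 6.32e-05, 0.000553 and 6.32e-05. Akr1c18, Wnt10b, Cish and Sgk1 were lower at that age too, with log2 fold changes of -6.32, -5.88, -2.26 and -2.38 and adjusted p of 0.00970, 0.00129, 0.0138 and 0.000184. Ctgf and Vegfa, called at 6 months, did not pass at 22 months (0.95, adjusted p = 0.0707 and -0.49, adjusted p = 0.0937). Their difference between ages did not pass either, at -1.72 (SE 0.40, adjusted p = 0.533) for Ctgf and 0.73 (SE 0.23, adjusted p = 0.594) for Vegfa. Igf1 and Amh went the other way. They passed at 22 months (1.35, adjusted p = 0.0168 and 2.78, adjusted p = 0.0239) and not at 6 months, with the differences between ages again not past the threshold (adjusted p = 0.769 and 0.781).

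**Figure D4:**
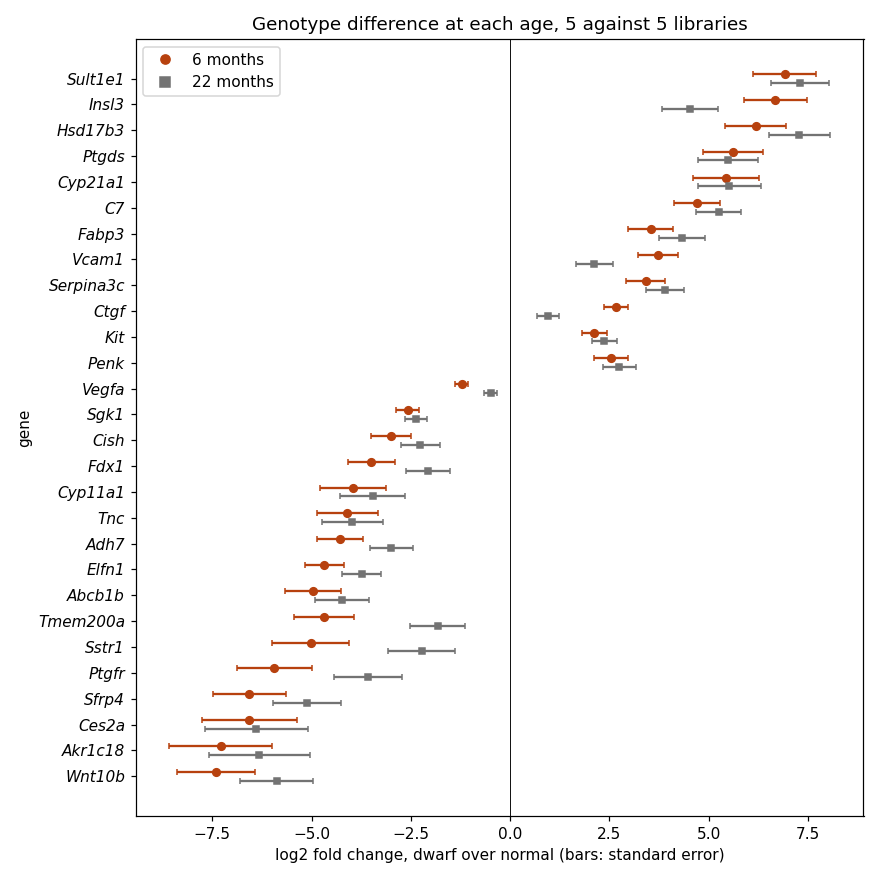
Log2 fold change (dwarf over normal) with its standard error at 6 months (circles) and at 22 months (squares), 5 libraries a group, for 28 genes. The 28 were picked from the genes named here, and all keep their sign at 22 months. Cyr61, Lum and Lrat, called at 6 months and not shown, do not. They were at 1.66, -1.99 and -1.75 at 6 months and at -0.42, 0.12 and 0.28 at 22 months. With all libraries no gene passed the test of the difference between ages.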

How the data were processed

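Polyadenylated RNA from ovaries of df/df (dwarf) and N/df (normal) females was sequenced. Each library has a deposited file of raw counts per gene in the format of HTSeq. Per the submitters' processing notes, the authors used Bowtie2, TopHat2 2.0.10, HTSeq, DESeq and edgeR with mm10; these do not give the role of each tool or the strand setting. Rows for reads not assigned to a gene, 9.84 to 17.6% of each file, were left out. Levels are CPM with TMM scaling. The counts were fitted in R 4.3.3 with edgeR 4.0.16 (filterByExpr, minimum count 10, minimum total 15, robust glmQLFit and glmQLFTest) on all 20 libraries with 4 group means, and p-values were adjusted by Benjamini-Hochberg over all tested genes. Calls have an adjusted p under 0.05. Intervals are log2 fold change ± 1.96 SE (95%). The spread was large (common dispersion 0.165), and normal replicate 3, with 1365640 counts, measures low genes least precisely.

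Alternatives were RLE and upper quartile scaling, other count filters, DESeq2 1.42.0, limma voom (limma 3.58.1), non-robust estimates, only the 10 libraries of 6 months, the replicate number as a block, an oviduct covariate, and libraries left out. The model was tested on simulated data. The level of the mutated gene is not reported here. The replicate numbers of the labels were checked for pairing and do not pair the libraries. The genes named are the 10 largest rises and falls among called genes whose groups did not overlap and whose higher mean was 2 CPM or more, with all libraries and without normal replicate 2, up to 3 called genes of each of 36 gene lists, and a fixed panel; further list members and the genes of the closing section were named after their values were seen. The comparison, its members and the lists were chosen with earlier results of these data known. Coordinates are from the deposited mm10 annotation, with promoters from RefSeq (GRCm38.p6).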

Additional observations from a re-analysis of the deposited data

Results flagged for a closer look

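Values far from the rest of their group by Dixon's criterion (95%) were found for 42 of 282 groups of 5 libraries. Chance gives such a value in about 1 in 20 independent groups. Some of these genes were named from the fit without normal replicate 2, and many vary together, so the 42 cannot be judged by that rate. The values are log2 CPM, and 32 of the 42 are of normal replicate 2, with 3 of normal replicate 3 and 5 of dwarf libraries.

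In normal replicate 2 the values of luteal genes were 0.92 for Akr1c18, 5.20 for Sfrp4, 3.14 for Fdx1, 3.53 for Prlr, 6.49 for Scarb1, -0.20 for Lhcgr, 5.43 for Star, 4.63 for Cyp11a1 and 5.67 for Hsd3b1, each below the other 4 normal libraries. The lowest of those others was 6.49 for Akr1c18, 11.47 for Cyp11a1 and 12.08 for Hsd3b1. Follicle and oocyte genes were low in it as well, at 2.18 for Amh, -2.87 for Sohlh1, -2.87 for Sohlh2, -2.87 for Lhx8, 0.39 for Gdf9 and -0.62 for Zp3. The other low genes in this library were -0.47 for Onecut2, 0.12 for Wisp2, 5.68 for Dhcr7, 5.46 for Fdps, 4.19 for Tnc, 3.63 for Aplnr, 0.97 for Mrap and 2.13 for Abcb1b. High genes in the same library were 3.81 for Klk1b24, 4.82 for Klk1b21, 5.96 for Cwh43, 12.96 for C3 and 9.71 for Hdc, where the highest of the other normal libraries was 8.28 for C3 and 5.19 for Hdc. Whole lists stood apart in it too: the mean was 3.82 for the luteal list, 2.05 for the androgen and theca list, 3.00 for the granulosa list and -1.31 for the oocyte list.

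Normal replicate 3 was high for Insl3 at 1.89, Hsd17b3 at 1.89 and Ptgds at 8.41, which all rose in dwarf ovaries; the highest of the other normal libraries was -0.16, -0.95 and 5.20. Normal replicate 4 was high for Srxn1 (6.59) and Thrb (4.91). Dwarf replicate 2 was low for Bex2 (2.95), Irs2 (5.91) and Cxcl1 (1.98), and dwarf replicate 4 was low for Nqo1 (3.12) and Ces1d (6.19).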

How the results depend on the processing

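None of the 735 genes called with all libraries changed sign under any of the alternatives run. Of 82 called genes named here, 50 stayed past the threshold under every alternative, and 29 lost their call in the fit of only the 10 libraries of 6 months (adjusted p from 0.0502 to 0.196). The named genes include the largest changes, and among all 735 called genes 233 (31.7%) were still called in that fit. The counts of genes moved more. DESeq2 called 608 higher and 806 lower, limma voom 906 and 949, the oviduct covariate 761 and 569, the fit of only the 10 libraries of 6 months 119 and 125, and the fit without normal replicates 2 and 3 together 870 and 745. Leaving out 1 library at a time gave 188 to 891 genes higher and 162 to 568 lower. The highest counts were without normal replicate 2 (891 and 568). Without dwarf replicate 1 the counts were 218 and 162, without dwarf replicate 5 they were 188 and 181, and lower calls fell to 209 without dwarf replicate 3 and 217 without dwarf replicate 4. Higher calls made up 49.7% of all calls with all libraries, 61.1% without normal replicate 2, 61.4% without dwarf replicate 4, 38.7% without normal replicate 4 and 38.2% without normal replicate 5. For the difference between ages, DESeq2 called 17 genes, limma voom 9, the fit without normal replicates 2 and 3 together 23 and the oviduct covariate 1, with 0 to 1 when single libraries were left out. The cause of these moves was not tested, beyond the fewer libraries in some fits.

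With the replicate number as a block, 369 genes were higher, 303 lower and 0 differed between ages, and 570 of the 735 genes were still called. The numbers do not pair the libraries: the correlations of same-numbered libraries were -0.061, 0.719, 0.133, -0.215 and 0.368, and 1 of 5 libraries correlated best with its own number. Under the block Scarb1, C4a, Cxcl1, Tpsb2, Pck1, Mvd and Mgst1 lost their call (adjusted p = 0.0651, 0.0550, 0.0647, 0.0662, 0.0662, 0.0534 and 0.0633).

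Changes of sign were limited to genes that did not pass with all libraries. On the log2 scale the values with the block were 1.68 for Klk1b24, 0.95 for Klk1b21, 0.83 for Cwh43, 0.93 for C3, 0.31 for Hdc, 0.87 for Ovgp1, 0.48 for Tekt1, 0.61 for Fam183b and 0.18 for Mki67. Under the oviduct covariate they were 2.31 for Klk1b24, 1.35 for Klk1b21, 0.96 for Cwh43, 0.40 for C3, 0.25 for Hdc, 0.39 for Ovgp1, 0.49 for Tekt1, 0.39 for Fam183b and 0.59 for Mki67. With limma voom they were 5.27 for Klk1b24, 4.72 for Klk1b21, 3.93 for Cwh43, 2.03 for C3, 1.77 for Hdc, 2.98 for Ovgp1, 2.68 for Tekt1, 2.20 for Fam183b, -0.10 for Socs2 and 0.05 for Mki67. Without normal replicates 2 and 3 together they were 8.47 for Klk1b24, 6.46 for Klk1b21, 5.16 for Cwh43, 2.87 for C3, 1.94 for Hdc, 3.76 for Ovgp1, 3.33 for Tekt1, 2.86 for Fam183b, -0.23 for Socs2 and -0.08 for Fshr. Tppp3, at 0.01 with all libraries, was -0.05 with DESeq2, RLE scaling or only the 10 libraries, -0.02 with no low-count filter and -0.32 without the libraries numbered 21 to 23 in their titles. Mki67 was 0.02 with upper quartile scaling, 0.00 with no low-count filter and 0.61 without the libraries numbered 21 to 23, where Cidea was -0.15.

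With single libraries left out, the ranges were -0.48 to 8.41 for Klk1b24, -1.64 to 6.48 for Klk1b21, -1.98 to 5.23 for Cwh43, -0.06 to 4.32 for Nell1 and -1.0 to 2.82 for C3. They were -1.26 to 1.89 for Hdc, -2.07 to 3.53 for Ovgp1, -1.34 to 3.27 for Tekt1, -0.45 to 1.68 for Tppp3, -0.98 to 2.98 for Fam183b, -2.60 to 0.21 for Cyp19a1, -0.82 to 3.93 for Cidea and -0.28 to 0.59 for Mki67. For Klk1b24, Klk1b21, Cwh43, Nell1, C3, Hdc, Ovgp1, Tekt1, Tppp3, Fam183b and Cidea the highest value is the one without normal replicate 2. Depth limits the genes below about 1 CPM most, since normal replicate 3 holds 1365640 counts.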

Other observations

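The genes described here were chosen after their values were seen, from among the calls outside the lists, and stand for no group of genes. Wnt4, a ligand needed for ovary formation and luteal function, was at 56.0, 63.2, 84.0, 56.3 and 49.5 CPM in dwarf and 514, 114, 722, 259 and 235 CPM in normal libraries, with no overlap and a log2 fold change of -2.57, SE 0.41, adjusted p = 0.00148. Wnt5a, another Wnt ligand, fell by a log2 fold change of -1.04, SE 0.21, adjusted p = 0.00616, with an adjusted p of 0.0674 when only the 10 libraries of 6 months were fitted. Frzb, a secreted Wnt inhibitor, was higher at 10.9, 12.4, 11.4, 12.0 and 15.8 CPM in dwarf and 2.28, 2.85, 0.894, 6.28 and 2.41 CPM in normal libraries, a log2 fold change of 1.96, SE 0.37, adjusted p = 0.00436. Lrat, which stores retinol as esters, was at 4.03, 6.21, 1.51, 5.46 and 4.50 CPM in dwarf and 17.4, 20.7, 6.26, 9.56 and 17.6 CPM in normal libraries, a log2 fold change of -1.75, SE 0.35, adjusted p = 0.00672; with only the 10 libraries of 6 months the adjusted p was 0.0636. Cyp26b1, which degrades retinoic acid, was at 59.8, 42.0, 86.7, 37.9 and 54.0 CPM in dwarf and 21.3, 4.46, 10.7, 8.77 and 10.9 CPM in normal libraries, a log2 fold change of 2.32, SE 0.43, adjusted p = 0.00380. At 22 months the values of Frzb, Lrat and Cyp26b1 were 0.01, 0.28 and 0.36, and their differences between ages did not pass (adjusted p = 0.594, 0.533 and 0.594).

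Abcb1b, a transporter that exports steroids and drugs, was at 7.96, 5.48, 7.36, 5.74 and 5.03 CPM in dwarf and 329.8, 4.24, 281, 208 and 168 CPM in normal libraries, where replicate 2 alone lay below the dwarf libraries. Its log2 fold change was -4.96, SE 0.70, adjusted p = 0.000659, and -5.25, SE 0.35, adjusted p = 1.30e-07 without that library. Penk, the precursor of enkephalins, was at 309, 277, 388, 246 and 283 CPM in dwarf and 23.6, 122, 74.2, 24.8 and 16.1 CPM in normal libraries, a log2 fold change of 2.54, SE 0.42, adjusted p = 0.00205, and of 3.29, SE 0.35, adjusted p = 1.96e-05 without normal replicate 2. With only the 10 libraries of 6 months the adjusted p of Penk was 0.0510. Nr0b1, a nuclear receptor that represses steroid synthesis genes, was at 33.0, 29.2, 23.3, 29.9 and 42.4 CPM in dwarf and 6.46, 1.17, 14.3, 6.46 and 7.11 CPM in normal libraries, a log2 fold change of 2.29, SE 0.44, adjusted p = 0.00490. Cyp27a1, a mitochondrial sterol hydroxylase, was at 81.7, 65.1, 91.8, 57.2 and 112 CPM in dwarf and 22.6, 18.5, 23.2, 12.1 and 15.7 CPM in normal libraries, a log2 fold change of 2.17, SE 0.27, adjusted p = 0.000237. Irf8, an interferon regulatory factor of myeloid cells, was at 66.1, 84.6, 95.6, 102 and 111 CPM in dwarf and 28.3, 22.1, 25.0, 26.9 and 16.4 CPM in normal libraries, a log2 fold change of 1.96, SE 0.32, adjusted p = 0.00185, while no macrophage marker passed. Ces1d, a carboxylesterase of a family of close copies, was at 111, 112, 108, 73.0 and 114 CPM in dwarf and 10.0, 157, 13.4, 14.1 and 5.01 CPM in normal libraries, and rose once normal replicate 2 was left out (3.38, SE 0.26, adjusted p = 4.65e-07; with it, adjusted p = 0.262). At 22 months its means were 79.9 ± 12.9 CPM in normal and 174.9 ± 27.5 CPM in dwarf ovaries (SD, n = 5).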
